A study of Mus musculus with 2 samples.

Results

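Notch signaling was described here through 10 of the 31053 genes measured in the mouse aorta-gonad-mesonephros (AGM) region: the 4 receptors Notch1, Notch2, Notch3 and Notch4, the 3 ligands Jag1, Dll1 and Dll4, and the 3 Hey genes Hey1, Hey2 and Heyl. The genes were chosen by name, and their unique molecular identifiers (UMIs, each standing for 1 captured RNA molecule) were read in cells sorted into classes by other marker genes. The AGM is the region around the dorsal aorta of the embryo in which hematopoietic stem cells are first found. Whole AGMs of embryonic day 11 were taken from PDGFRB +/+ (WT) and PDGFRB -/- (KO) mouse embryos, dissociated with collagenase and loaded on the 10x Chromium for 7000 cells each, which gave 1 library per genotype. The KO carries the loss of PDGFRB, a receptor of perivascular cells, in every cell of the embryo, and the line is kept as heterozygotes on C57BL/6J. The number of embryos in each library is not given in the sources used here.

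A cell was a barcode with at least 2000 UMIs of which under 10% were mitochondrial, which left 8253 cells with 150175081 UMIs in WT and 8165 cells with 142222182 UMIs in KO. The medians were 13321 and 12391 UMIs per cell, and 20 barcodes occurred in both libraries. Pdgfrb had 43.1 CPM (UMIs of a gene over all UMIs, times 1e+06) in WT compared with 7.09 in KO, where 801 cells still held a UMI of it. Xist stood at 793 CPM in WT against 0.415 in KO, and Y-linked genes at 0.0266 against 163 CPM. Sex, genotype and library therefore cannot be told apart. No test was made, because cells of the same library do not replicate a genotype. Levels are CPM of the UMIs summed over a class, and the ranges in parentheses are 95% intervals that cover counting error alone. Ratios are log2 values and are given where both sides together held at least 20 UMIs. A ratio is called past 2-fold where it exceeds 2-fold in size and its interval excludes 0.

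In Notch signaling, a ligand on a sending cell binds a receptor on its neighbor. The receptor is then cut, and its intracellular part enters the nucleus, where it joins the DNA-binding protein RBPJ and switches on targets such as the Hey genes, which encode transcriptional repressors. Notch1 is required in endothelium for hematopoietic stem cells to form, Dll4 and Jag1 are ligands of the aortic endothelium, Notch3 is the receptor known from mural cells (pericytes and smooth muscle), and Dll1 is known from somites, muscle and neural progenitors. A transcript of a receptor or ligand does not measure signaling, and counts at the 3′ end of transcripts do not allow levels of different genes to be compared, so each gene is compared with itself across classes.

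The promoters of Hey2 and Notch4 are shown because, among the members, they hold the most matches to the letters of either factor motif searched: TGGGAA (reverse strand TTCCCA), the core letters recognized by RBPJ, and CAGGAA (reverse strand TTCCTG), core letters of the ETS factors active in endothelium. Both end in GGAA, and the same letters cannot match both. RefSeq promoters of build GRCm38.p6 were at hand for 8 of the 10 members, with 9 promoters in all and none for Hey1 and Heyl. Each runs from 250 bases before to 50 bases after the start of its RefSeq entry, 5′ to 3′ on the strand of the gene, with the matches in capitals. For Notch1 and for 1 of the 2 Dll1 entries this start lies well inside the span of the gene given further on. For Jag1, Hey2, Notch4 and Notch2 it lies inside the span as well, nearer to its edge.
Hey2, chr10:30842734-30843033, minus strand: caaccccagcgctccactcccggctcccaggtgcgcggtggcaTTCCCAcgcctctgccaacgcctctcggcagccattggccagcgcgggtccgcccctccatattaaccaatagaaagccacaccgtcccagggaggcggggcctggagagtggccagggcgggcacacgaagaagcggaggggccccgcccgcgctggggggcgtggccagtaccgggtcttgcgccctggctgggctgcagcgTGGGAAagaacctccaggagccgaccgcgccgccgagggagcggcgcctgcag
Notch4, chr17:34564045-34564344, plus strand: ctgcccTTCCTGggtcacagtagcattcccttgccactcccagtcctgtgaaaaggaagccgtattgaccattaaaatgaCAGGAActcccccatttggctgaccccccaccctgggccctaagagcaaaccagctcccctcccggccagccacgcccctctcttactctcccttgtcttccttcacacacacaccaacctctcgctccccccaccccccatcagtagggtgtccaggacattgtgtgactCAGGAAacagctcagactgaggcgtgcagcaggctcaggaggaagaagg
The RBPJ letters stood in Hey2 at -3 and, on the reverse strand, at -207 relative to the RefSeq start, and in no other member promoter. They occur in 25.6% of the 32851 promoters of 300 bases. The ETS letters stood in Notch4 at -170, at 1 and, reversed, at -244, and in Notch1 at -88, where 30.6% of all promoters hold them. A match is a description of the sequence and not a site.

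Cells met 1 of 13 classes when they held at least 3 markers of a list at 5 or more marker UMIs per 10000 UMIs, and no member stood in a list. The classes used most below are endothelial-like cells (114 in WT, 94 in KO), mural-like cells (549 and 358), sclerotome-like cells (1541 and 2354), splanchnic mesenchyme-like cells (496 and 242), skeletal muscle-like cells (128 and 319), neural crest or Schwann precursor-like cells (104 and 100), sympathoblast or neuron-like cells (84 and 91), and cells meeting both neural lists (72 and 52). No class was named for 3764 WT and 3822 KO cells, and 328 and 222 cells met more than 1 list and were left out. Pecam1 was at 322 CPM in WT endothelial-like and 0.682 CPM in mural-like cells, and Acta2 was at 34.2 and 4236 CPM. Both genes stand in the lists that made these classes, so the values describe the gate and do not test the names. Erythroid-like cells, which should lack most members, served as a reference for free RNA: Notch1 was found in 0.976% of the 717 in WT, at a median of 16576 UMIs, and in 0 of 209 in KO. Notch2 was found in 3.21%, Notch3 in 3.35% and Jag1 in 1.81% of the 717.

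Of the receptors, Notch1 (chromosome 2, 26457903 to 26516663) was highest in endothelial-like cells, with 317 UMIs or 94.3 CPM (84.2 to 105) in WT and 433 UMIs or 109 CPM (98.6 to 119) in KO. The class stood 2.85 (2.67 to 3.02) above all other WT cells and 2.99 (2.84 to 3.14) above all other KO cells. Neural crest or Schwann precursor-like cells followed with 77.6 CPM in WT and 77.1 in KO, below the endothelial-like cells by 0.28 (0.01 to 0.55) and 0.49 (0.23 to 0.76). Notch1 was thus not an endothelial transcript alone, and endothelial-like cells held 14.2% of its UMIs in WT and 18.6% in KO. Cells meeting both neural lists had 37.7 and 56.4 CPM and mural-like cells 26.8 and 35.5 CPM, whereas sympathoblast or neuron-like cells had 10.1 and 10.4 CPM. A Notch1 UMI was found in 59.6% of endothelial-like cells in WT, at a median of 16484 UMIs, and in 71.3% in KO, at 29504 UMIs. At 2000 UMIs per cell the shares were 14.0% and 25.5%.

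Notch4 (chromosome 17, 34564268 to 34588503), a receptor known from endothelium, was at 38.7 CPM (32.3 to 45.9) in endothelial-like cells of WT and 44.9 CPM (38.5 to 51.9) of KO. No other class exceeded 4.74 CPM in WT or 4.90 CPM in KO. The class stood 3.80 (3.50 to 4.09) and 4.15 (3.88 to 4.42) above all other cells. Unlike Notch1, Notch4 had its next levels at 3.03 (2.14 to 4.06) below the top class in WT and 3.19 (2.19 to 4.43) below it in KO. Endothelial-like cells still held only 24.2% of its UMIs in WT and 33.9% in KO, and cells of no class 31.4% and 29.7%.

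Notch3 (chromosome 17, 32120820 to 32166852) and Notch2 (chromosome 3, 98013527 to 98150361) were higher in mural-like than in endothelial-like cells of both libraries. Notch3 reached 50.6 CPM (46.8 to 54.6) in mural-like cells of WT and 59.6 CPM (54.7 to 64.8) of KO, and skeletal muscle-like cells followed with 43.4 and 35.1 CPM. The 13 epithelial-like cells of WT had 52.8 CPM, which differed from the mural-like level by 0.06 (-0.50 to 0.57), within the interval. Notch2 was spread most evenly: it was at 32.6 CPM in mural-like and 31.2 CPM in sclerotome-like cells of WT, a difference of 0.06 (-0.11 to 0.24), and at 29.4 and 29.3 CPM in KO. Neural crest or Schwann precursor-like cells came next for Notch2, with 27.2 CPM in WT and 24.9 in KO. In endothelial-like cells Notch2 was at 7.14 and 3.76 CPM and Notch3 at 11.3 and 5.51 CPM. These stood below all other WT cells by 1.71 for Notch2 (ratio -1.71, -2.35 to -1.13) and 1.28 for Notch3 (ratio -1.28, -1.78 to -0.82). Over barcodes with at most 100 UMIs, which hold free RNA, Notch2 was at 53.1 CPM in WT and at 64.0 in KO, above its level in every class, and Notch3 at 24.6 and 27.1 CPM.

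Among the ligands, Dll4 (chromosome 2, 119325784 to 119335962) was the member most confined to a class in both libraries, with 71.1% of its UMIs in endothelial-like cells of WT and 74.1% in KO. Its level there was 33.6 CPM in WT (27.7 to 40.4; 113 UMIs) and 25.1 CPM in KO (20.4 to 30.5; 100 UMIs), which stood 6.74 (6.24 to 7.27) and 6.63 (6.06 to 7.23) above all other cells. Mural-like cells held 0 Dll4 UMIs in both libraries, which allows up to 0.227 CPM in WT and 0.323 CPM in KO. Sclerotome-like and skeletal muscle-like cells also held 0. Sympathoblast or neuron-like cells had 2.90 CPM in WT (1.06 to 6.31) and 2.45 CPM in KO (0.668 to 6.27), from 6 and 4 UMIs.

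Jag1 (chromosome 2, 137081456 to 137116644) was the ligand of mural-like cells. It reached 62.2 CPM in WT (58.0 to 66.6) and 84.4 CPM in KO (78.6 to 90.5), 2.42 (2.30 to 2.54) and 2.92 (2.79 to 3.04) above all other cells. Neural crest or Schwann precursor-like cells came next with 35.8 and 38.6 CPM, 0.80 (0.47 to 1.14) and 1.13 (0.81 to 1.47) below the mural-like cells. Endothelial-like cells had 19.9 and 12.8 CPM, splanchnic mesenchyme-like cells 16.5 and 21.5 CPM, and skeletal muscle-like cells 1.90 and 2.63 CPM.

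Dll1 (chromosome 17, 15367354 to 15376872) belonged to skeletal muscle-like cells, with 17.7 CPM in WT (13.4 to 23.0) and 15.6 CPM in KO (12.7 to 19.0). These cells held 39.2% of all Dll1 UMIs in WT and 45.9% in KO, and stood 4.91 (4.39 to 5.41) and 4.15 (3.76 to 4.55) above all other cells. The next class differed between the libraries: cells meeting both neural lists had 8.0 CPM in WT and 5.13 in KO, and endothelial-like cells 4.76 and 8.02 CPM. The intervals of both pairs overlapped. Mural-like and sclerotome-like cells held at most 0.336 CPM in either library.

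Among the 13 classes, each Hey gene was highest in either endothelial-like or mural-like cells. Hey1 (chromosome 3, 8663359 to 8667256) was highest in endothelial-like cells, at 53.2 CPM in WT (45.7 to 61.6) and 36.1 CPM in KO (30.4 to 42.5). Mural-like cells followed at 28.9 and 27.5 CPM, 0.88 (0.61 to 1.14) and 0.39 (0.09 to 0.69) lower. Endothelial-like cells still held only 9.73% of the Hey1 UMIs in WT and 10.6% in KO. Mural-like cells held 20.8% and 18.7%, and cells of no class 32.5% and 33.8%. Heyl (chromosome 4, 123233556 to 123249875) was highest in mural-like cells, at 60.1 CPM in WT (56.0 to 64.5) and 56.3 CPM in KO (51.5 to 61.3), 3.57 (3.42 to 3.72) and 3.74 (3.57 to 3.92) above all other cells. It was nearly absent from endothelial-like cells, with 1 UMI in WT and 2 in KO. Neural crest or Schwann precursor-like cells had 40.9 and 42.6 CPM of Heyl, below mural-like cells by 0.55 (0.25 to 0.88) and 0.40 (0.08 to 0.73), so this gene marked both.

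Hey2 (chromosome 10, 30832359 to 30842801) was highest in mural-like cells, with 24.4 CPM in WT (21.8 to 27.2) and 34.3 CPM in KO (30.6 to 38.3). Endothelial-like cells of WT came next with 13.1 CPM (9.51 to 17.6), while those of KO had 3.01 CPM (1.55 to 5.25). Against all other WT cells, 9 of the 10 members were past 2-fold in endothelial-like cells, 6 higher and 3 lower, where 22% of all genes were. In mural-like cells 7 of 10 were, 5 higher and 2 lower, where 14.5% of all genes were. The members higher in mural-like cells were Notch3, Jag1, Hey1, Hey2 and Heyl.

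**Figure D1:**
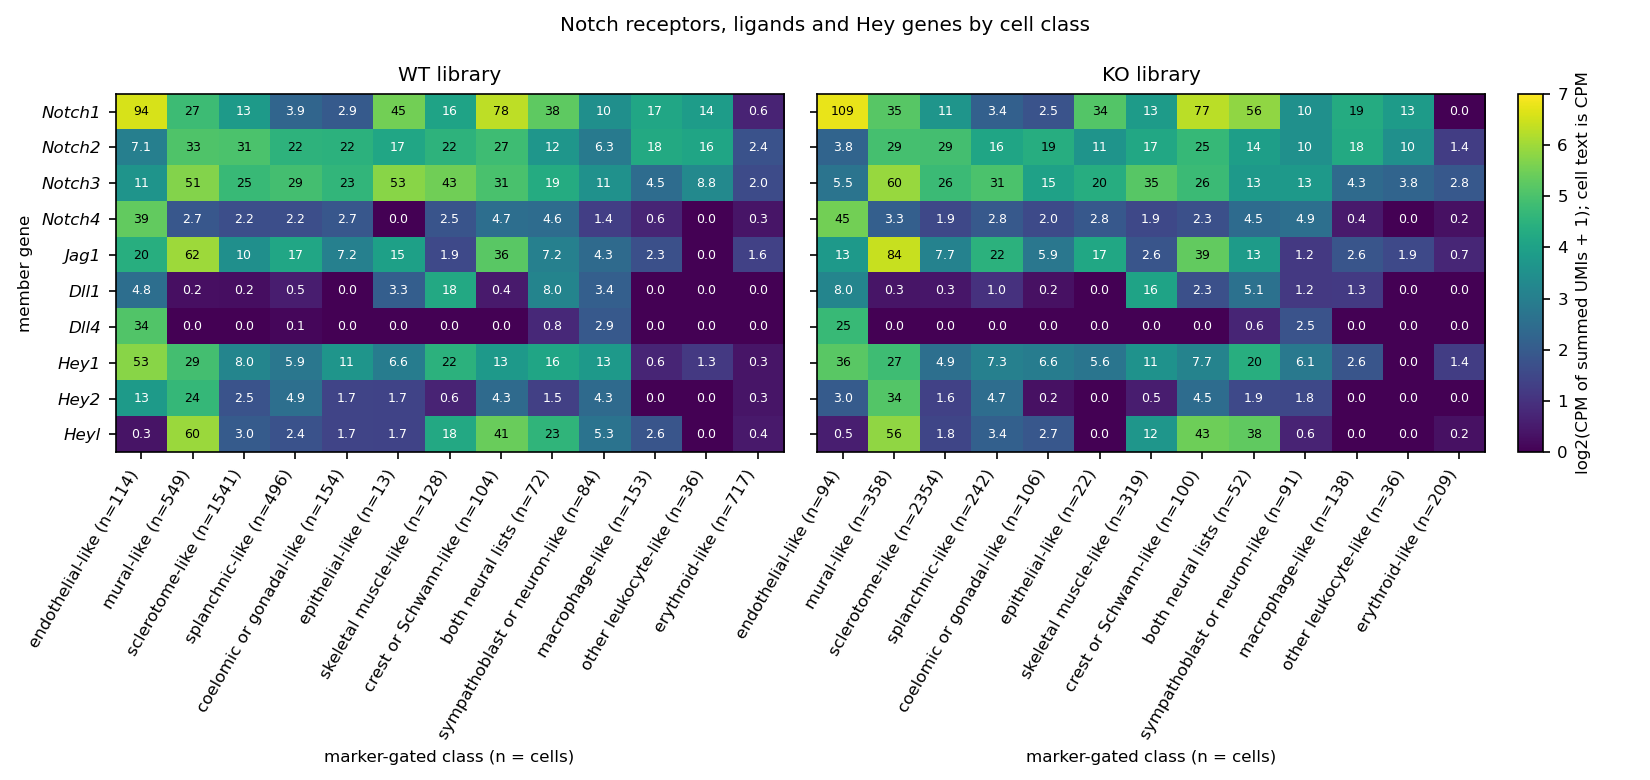
Level of each member (rows) in each of the 13 classes (columns, with the number of cells), for the WT library (left) and the KO library (right). The color gives log2(CPM + 1) and the number in each field the CPM of summed UMIs. Notch1, Notch4, Dll4 and Hey1 peak in endothelial-like cells, Jag1, Hey2 and Heyl in mural-like cells, and Dll1 in skeletal muscle-like cells in both libraries.

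Within endothelial-like cells, the ligands Dll4 and Jag1 and the targets Hey1 and Hey2 followed the arterial side. Cells were called arterial or venous by which of 2 other marker lists had more UMIs, which gave 36 arterial and 60 venous cells in WT and 20 and 67 in KO. In WT, Hey2 was at 38.2 CPM (27.2 to 52.2) in arterial and 1.83 CPM (0.499 to 4.69) in venous cells, a ratio of 4.38 (2.91 to 6.33). Hey1 was at 138 and 10.1 CPM, a ratio of 3.78 (3.12 to 4.50). Dll4 was at 74.4 CPM (58.6 to 93.2) and 15.1 CPM (10.4 to 21.2), a ratio of 2.30 (1.69 to 2.94), so venous cells still carried it. Jag1 had a ratio of 1.96 (1.20 to 2.77) and Notch4 of 1.61 (1.07 to 2.15), whereas Notch1 had 0.76 (0.42 to 1.09), which did not reach 2-fold. In all, 5 of the 8 members with enough UMIs were past 2-fold, all higher in arterial cells, where 8.66% of all genes were past it in either direction.

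In KO the same comparison gave ratios of 3.03 (2.52 to 3.55) for Hey1, 2.72 (1.86 to 3.58) for Jag1, 2.16 (1.5 to 2.79) for Dll4 and 1.66 (1.16 to 2.13) for Notch4. Notch3 joined them with 2.42 (0.99 to 3.79), from 9 arterial and 12 venous UMIs, and Notch1 stood at 0.96 (0.60 to 1.31). Of 7 members, 5 were past 2-fold, where 10.7% of all genes were. Arterial cells of WT also held Acta2, a gene of mural cells, with 66 UMIs in 36 cells, compared with 2 UMIs in 20 KO cells. Venous cells were not free of such genes. A UMI of Acta2, Rgs5 or Pdgfrb was in 15 of 36 arterial and 22 of 60 venous WT cells. In KO it was in 1 of 20 and 10 of 67. The part of mural RNA in these levels was not tested.

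**Figure D2:**
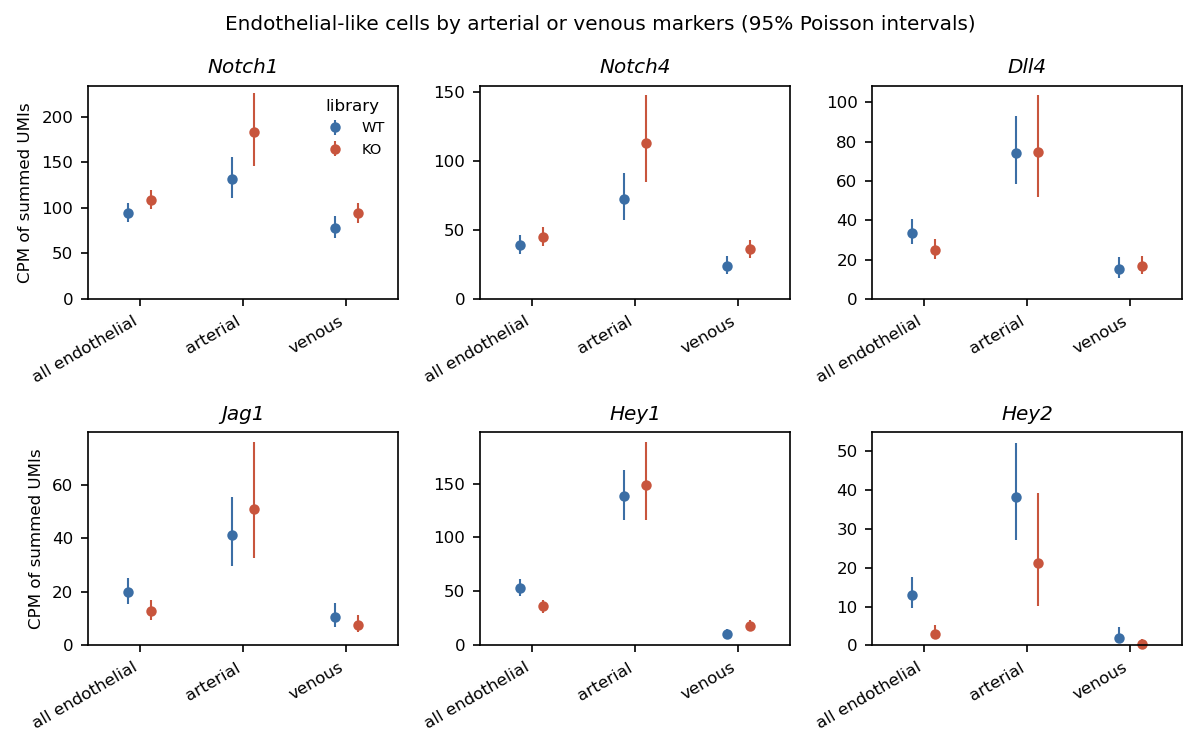
CPM of 6 members (panels) in all endothelial-like cells and in their arterial and venous cells, for WT (blue) and KO (red); points are CPM of summed UMIs, bars are 95% Poisson intervals, and each panel has its own axis from 0. Each gene is higher in arterial than in venous cells of both libraries, and Dll4 of arterial cells stands at 74.4 CPM in WT and at 74.5 in KO.

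Kit marks endothelial cells on the way to blood among others. The study named cells with both Pecam1 and Kit intra-aortic hematopoietic clusters, and divided its endothelial cells, low or negative for Kit, by Runx1. The division here, by a Kit UMI among endothelial-like cells, is a different one. Cells with a Kit UMI were deeper, with a median of 45516 UMIs in WT compared with 10438 without one, so the division moved with depth. In WT, Kit-positive cells had lower Hey2 (ratio -3.80, -5.50 to -2.45), Jag1 (-2.63, -3.56 to -1.78) and Hey1 (-1.04, -1.49 to -0.60). These were the 3 of 8 members past 2-fold, where 4.39% of all genes were. Notch1 was at 94.2 CPM in Kit-positive and 94.3 CPM in Kit-negative cells, and Dll4 at 31.1 and 38.1 CPM, a ratio of -0.29 (-0.85 to 0.28). Arterial cells were fewer among the Kit-positive: 10 of the 36 arterial WT cells held Kit, compared with 34 of the 60 venous cells. In KO, Jag1 had a ratio of -0.85 (-1.70 to 0.01) and Hey1 of 0.09 (-0.43 to 0.64). Notch3 (-1.67, -3.07 to -0.33; 9 and 13 UMIs) was the 1 of 7 members past 2-fold there, where 2.58% of all genes were.

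Ligand and receptor met in the same endothelial-like cells. Of the 37 WT cells with a Dll4 UMI, 33 held Notch1 (89.2%), compared with 45.5% of the cells without Dll4. In KO, 35 of 38 did (92.1%), compared with 57.1%. Hey1 was found in 70.3% of Dll4 cells and 19.5% of the others in WT, and in 52.6% and 10.7% in KO. Deeper cells detect more of both genes: at 2000 UMIs per cell, only 2 WT and 2 KO cells held both Dll4 and Notch1, too few to read an order from.

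Mural-like cells carried a ligand, a receptor and the Hey genes together, and these were higher in the cells with Rgs5, a pericyte marker. The split by an Rgs5 UMI was chosen after the data were seen, and gave 337 Rgs5-positive and 212 Rgs5-negative cells in WT (medians of 17950 and 15210 UMIs) and 211 and 147 in KO. Rgs5 stands in the list that made the class, so cells without it met the class by its other markers. In WT, Jag1 was at 78.1 CPM (72.4 to 84.2) with Rgs5 and 30.4 CPM (25.5 to 36.0) without it. Hey2 was at 31.9 and 9.31 CPM, a ratio of 1.78 (1.30 to 2.29), and Heyl had a ratio of 1.44 (1.16 to 1.72). Notch1 had a ratio of 1.41 (1.00 to 1.85) and Notch3 of 0.96 (0.68 to 1.24), while Notch2, at 35.2 and 27.2 CPM, differed least, by 0.37 (0.06 to 0.69). In KO the ratios were 2.38 (1.96 to 2.82) for Heyl, 1.69 (1.24 to 2.17) for Hey2 and 1.44 (1.17 to 1.71) for Jag1. Notch3 and Heyl were found together in 159 of 549 WT and 83 of 358 KO mural-like cells. Heyl was in 54.8% of Notch3 cells and 28.6% of the others in WT, and in 38.6% and 26.6% in KO. At 2000 UMIs per cell the shares were 16.7% and 10.2% in WT and 10% and 7.62% in KO. Only 8 WT and 3 KO cells then held both, too few to read an order from.

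The study divided stromal cells by Pdgfrb and Cspg4, the gene of NG2. In WT, 406 cells outside the endothelial, blood, muscle, neural and epithelial classes held UMIs of both (DP), 2096 of Pdgfrb alone (PDGFRb-S), 247 of Cspg4 alone (NG2-S) and 3755 of neither (DN). The median was 24806 UMIs in DP and 9286 in DN cells, and a gate by UMIs selects deep cells. Hey2 was at 19.4 CPM (17.2 to 21.8) in DP, 5.08 CPM in PDGFRb-S, 3.34 CPM in NG2-S and 2.73 CPM in DN cells. Notch1 was at 22.9, 10.2, 13.4 and 7.55 CPM in the same order, and Notch2 at 32.4, 27.0, 25.8 and 24.4 CPM. Against the other 3 gates, 5 of 9 members were past 2-fold in DP cells, where 5.38% of all genes were: Heyl, Hey2, Jag1, Notch1 and Hey1. Notch3 was at 50.2 CPM in DP and 22.4 CPM in DN cells. Its ratio of DP to the other gates was 0.84 (0.72 to 0.96), and that of Notch2 was 0.33 (0.18 to 0.47). Between the libraries, the stromal cells with Cspg4, 653 in WT and 846 in KO, had 0 of 8 members past 2-fold, where 4.49% of all genes were. Lower in KO were Heyl (-0.67, -0.85 to -0.49), Hey1 (-0.60, -0.83 to -0.38), Hey2 (-0.48, -0.73 to -0.24), Jag1 (-0.44, -0.59 to -0.29) and Notch3 (-0.19, -0.32 to -0.05). Leaving the Pdgfrb-positive cells out of both libraries took away 406 of the 653 WT and 153 of the 846 KO cells. Those of WT were the DP cells, which had the highest levels of these genes. Heyl was then at 0.51, Hey2 at 1.07, Jag1 at 0.17 and Notch3 at 0.22. At under 5% mitochondrial UMIs Hey1 was at 0.15 and Notch3 at 0.13. The sign thus turned for the members named under each setting, and the part of the cells taken away was not tested. Stromal cells without Cspg4 also had lower Heyl (-0.77, -0.99 to -0.55), Hey1 (-0.47, -0.62 to -0.33) and Hey2 (-0.28, -0.51 to -0.05) in KO. The intervals of Jag1 and Notch3 included 0 there. Dll1 (1.04, 0.23 to 1.89) was the 1 of 9 members past 2-fold, where 5.03% of all genes were.

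**Figure D3:**
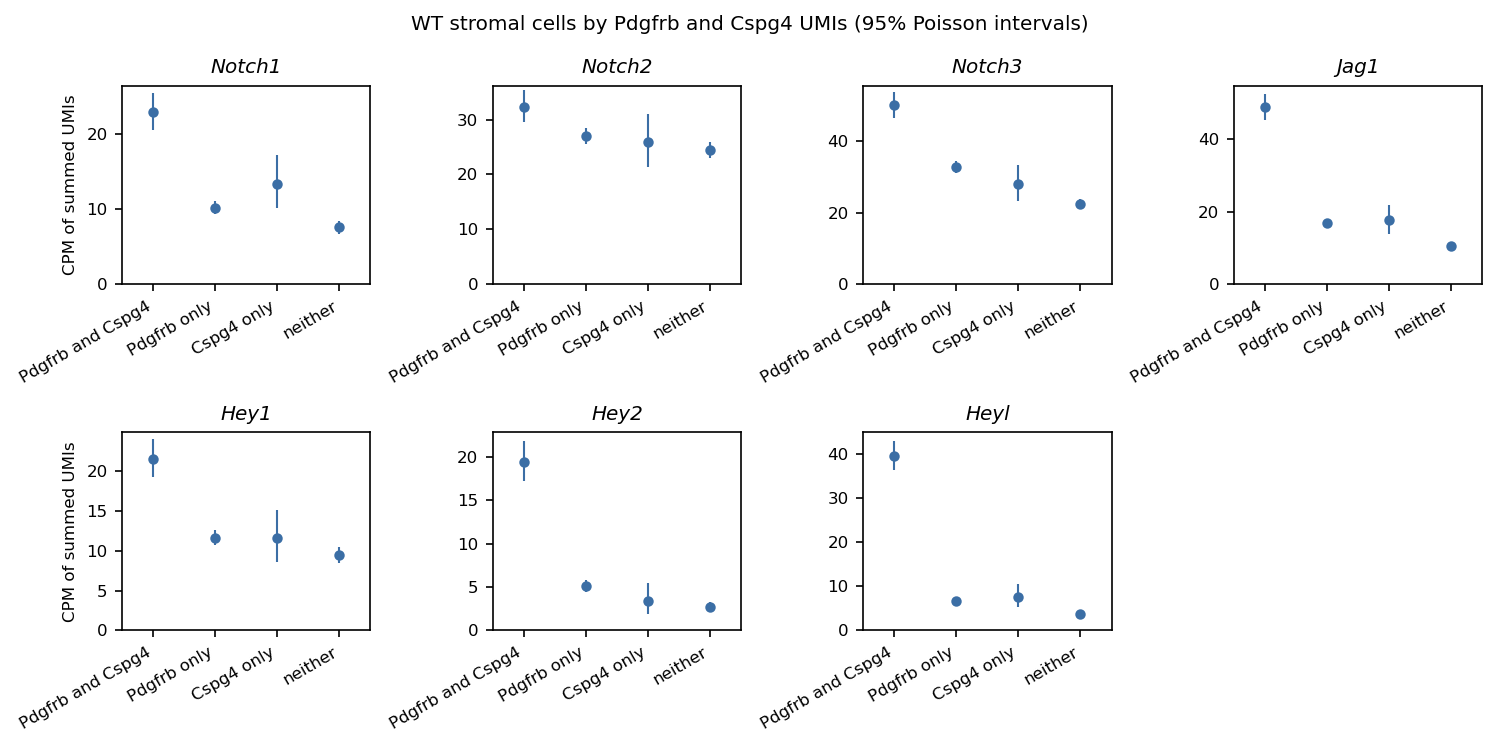
CPM of members in WT stromal cells by gate: DP, PDGFRb-S, NG2-S and DN, with 95% Poisson intervals as bars and axes from 0. Hey2, Heyl and Jag1 are highest in DP cells, with Hey2 at 19.4 CPM there and 2.73 CPM in DN cells, while Notch2 lies between 24.4 and 32.4 CPM in all gates.

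In skeletal muscle-like cells, Dll1 and Hey1 lay on opposite sides of Myog, the transcription factor of committed muscle precursors. Cells with a Myog UMI numbered 110 in WT and 264 in KO, and those without it 18 and 55. Dll1 was at 19.4 CPM (14.5 to 25.3) with Myog and 5.43 CPM (0.657 to 19.6; 2 UMIs) without it in WT, a ratio of 1.84 (-0.09 to 4.92) whose interval included 0. In KO it was at 17.7 CPM (14.3 to 21.5) and 3.25 CPM (0.669 to 9.49; 3 UMIs), a ratio of 2.44 (0.85 to 4.75). Hey1 was at 15.1 CPM (10.9 to 20.4) with Myog and 70.6 CPM (46.1 to 103) without it in WT, and at 8.29 and 27.0 CPM in KO, ratios of -2.23 (-2.97 to -1.46) and -1.71 (-2.44 to -0.94). Past 2-fold were 1 of 6 members in WT, where 8.89% of all genes were, and 2 of 6 in KO, where 12.1% were. Notch3 was lower with Myog in KO, at 30.8 compared with 60.6 CPM, a ratio of -0.98 (-1.42 to -0.51), and at 42.3 and 51.6 CPM in WT, a ratio of -0.29 (-0.99 to 0.50).

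Among neural cells, the members divided neural crest or Schwann precursor-like cells from neurons. Compared with the precursor-like cells, sympathoblast or neuron-like cells of WT had lower Jag1 (ratio -3.04, -4.22 to -2.05), Heyl (-2.95, -4.00 to -2.04) and Notch1 (-2.94, -3.66 to -2.28). Notch2 stood at -2.11 (-3.10 to -1.24) and Notch3 at -1.53 (-2.29 to -0.82), whereas Hey1 was at 12.6 and 12.9 CPM, a ratio of -0.04 (-0.86 to 0.76). In WT 5 of 6 members were past 2-fold, where 19.1% of all genes were, and in KO 5 of 6, where 18.5% were. In KO only 1 Heyl UMI and 2 Jag1 UMIs fell in the 91 neuron-like cells, whose median was 7102 UMIs. Cells meeting both lists had 22.9 CPM of Heyl in WT and 37.8 CPM in KO, between those of the other neural classes.

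**Figure D4:**
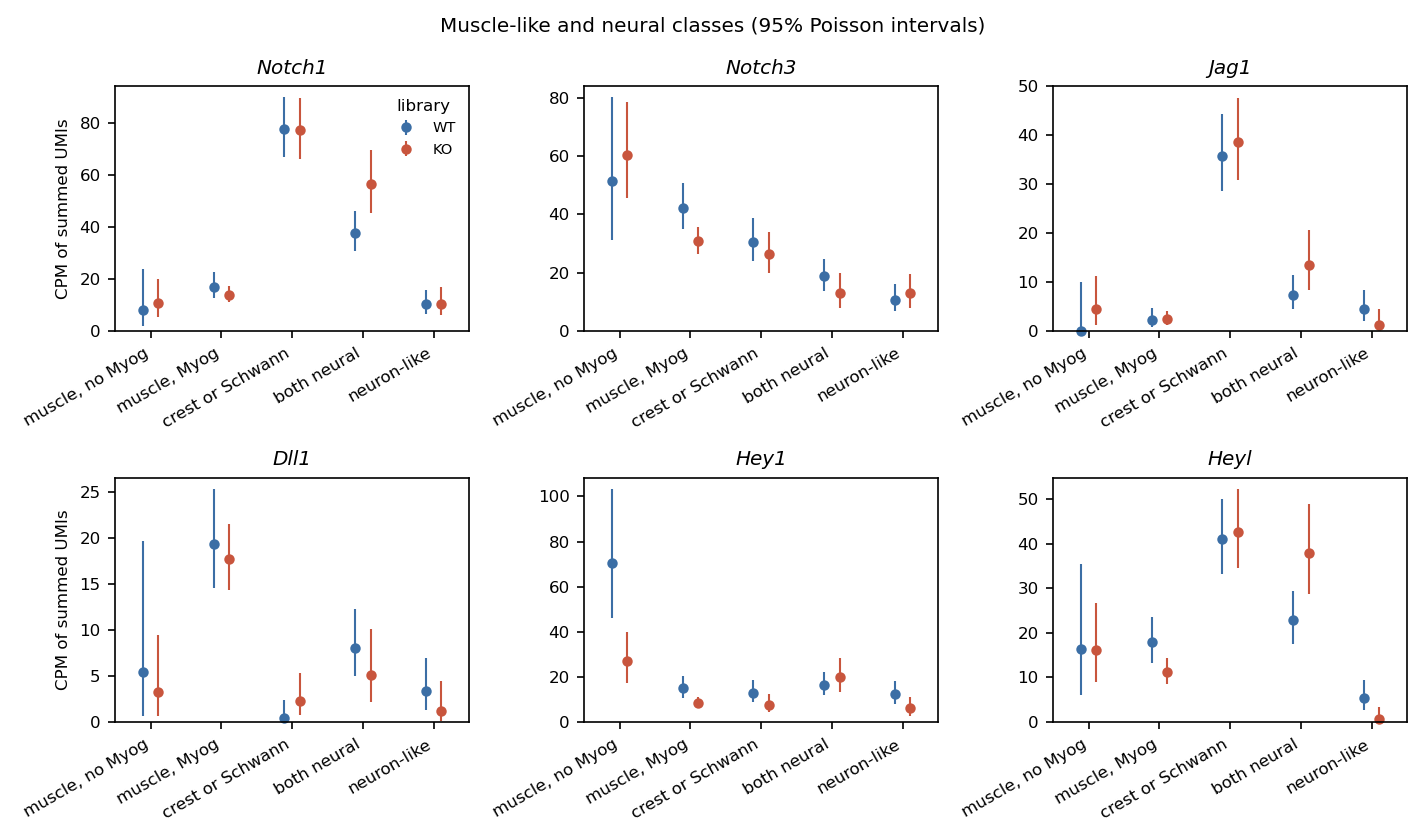
CPM of members in skeletal muscle-like cells with and without a Myog UMI and in the 3 neural classes, for WT (blue) and KO (red); bars are 95% Poisson intervals and axes start at 0. The Dll1 points lie higher and the Hey1 points lower in cells with Myog, the Dll1 bars of WT overlap, and Notch1 and Heyl are lowest in sympathoblast or neuron-like cells among the neural classes.

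Between the libraries, the members moved less than they differed between classes. Over all cells 0 of 10 were past 2-fold, where 6.42% of all genes were. Hey1 had 12.2 CPM in WT and 9.58 in KO, a KO over WT ratio of -0.35 (-0.46 to -0.25), Heyl had -0.38 (-0.50 to -0.27) and Hey2 -0.24 (-0.39 to -0.08). Dll1 had 0.70 (0.39 to 1.01), beside 128 skeletal muscle-like cells in WT and 319 in KO. The 4 receptors lay between 0.03 and 0.13. Over the 13 classes, 3 of the 76 member and class pairs with enough UMIs were past 2-fold: Notch3 and Hey2 in endothelial-like cells, and Notch3 in the 13 WT and 22 KO epithelial-like cells. Of all gene and class pairs, 4.8% were. The epithelial-like cells were led by different genes, Shh, Foxa2 and Sp8 in WT and Krt5, Krt14 and Wnt7b in KO, so unlike cells are compared there.

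In endothelial-like cells, 2 of 9 members were past 2-fold, both lower in KO, where 4.5% of all genes were, and the median of the 9 was -0.56 compared with 0.00 over all genes. Hey2 had 44 UMIs in WT and 12 in KO, a ratio of -2.12 (-3.18 to -1.18), and Notch3 had 38 and 22, a ratio of -1.03 (-1.86 to -0.24). Jag1 (-0.64, -1.19 to -0.09), Hey1 (-0.56, -0.89 to -0.24) and Dll4 (-0.42, -0.83 to -0.02) were also lower. Notch1 stood at 0.20 (-0.01 to 0.42) and Notch4 at 0.22 (-0.12 to 0.55). The libraries held different mixtures of endothelium: arterial cells gave 30.4% of the endothelial-like UMIs in WT and 11.8% in KO. Within arterial cells the ratio was 0.00 (-0.62 to 0.60) for Dll4, 0.11 (-0.33 to 0.53) for Hey1, 0.31 (-0.48 to 1.07) for Jag1 and -0.84 (-2.01 to 0.18) for Hey2. Within venous cells it was 0.14 (-0.50 to 0.81) for Dll4, 0.85 (0.13 to 1.63) for Hey1 and -0.44 (-1.31 to 0.43) for Jag1. With arterial and venous cells weighted equally, a setting chosen after the data were seen, the ratios were 0.03 for Dll4, 0.19 for Jag1, 0.17 for Hey1, 0.0032 for Notch3 and -0.89 for Hey2. Thus 4 of these 5 were not lower in KO under these weights, which left out the 18 WT and 7 KO cells that were neither. The Notch3 value joins opposite sides, -1.73 (-2.86 to -0.70) in venous and 0.83 (-0.62 to 2.24) in arterial cells. The part of the mixture in the lower levels was not tested. At under 5% mitochondrial UMIs Hey1 had a ratio of 0.24. That limit kept 43 WT and 35 KO endothelial-like cells, of which 9 and 8 were arterial, so it changed the mixture too.

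Notch4 was higher in KO within both arterial (0.64, 0.10 to 1.17) and venous cells (0.59, 0.11 to 1.09), and Notch1 stood at 0.47 (0.06 to 0.87) and 0.26 (-0.01 to 0.54). Notch3 was lower in venous cells (-1.73, -2.86 to -0.70; 26 and 12 UMIs) and stood at 0.83 (-0.62 to 2.24) in arterial cells. Genes of mural and mesenchymal cells moved with these results: WT endothelial-like cells held 115 Acta2, 20 Rgs5 and 28 Pdgfrb UMIs, and those of KO 12, 1 and 1. At least 1 UMI of these 3 genes was in 40 of 114 WT and 12 of 94 KO cells. Pdgfrb is the gene lost in KO, so its UMIs and this count also follow genotype. Leaving out only the cells with a Pdgfrb UMI kept 99 of the 114 WT and 93 of the 94 KO cells. Without the cells holding any of the 3 genes, Jag1 had a ratio of 0.14, Hey1 of -1.22, Hey2 of -1.12, Dll4 of -0.77 and Notch3 of -0.59. The part of these genes in the differences was not tested.

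In mural-like cells, 0 of 8 members were past 2-fold, where 3.98% of all genes were. Jag1 was higher in KO by 0.44 (0.30 to 0.58), Hey2 by 0.49 (0.26 to 0.72), Notch1 by 0.40 (0.18 to 0.62) and Notch3 by 0.24 (0.07 to 0.40), and the median of the 8 was 0.26 compared with 0.01 over all genes. Heyl stood at -0.10 (-0.26 to 0.06), Hey1 at -0.07 (-0.31 to 0.16) and Notch2 at -0.15 (-0.37 to 0.08). By Rgs5, Heyl stood at 0.07 (-0.11 to 0.24) in positive cells and -0.87 (-1.37 to -0.40) in negative cells, where it had 124 UMIs in WT and 52 in KO. The difference between the sides was not tested. Leading genes of the negative cells included Cnn1, Tagln and Lmod1 in both libraries, but also Trpc5os and Ankrd1 in WT and Cyp26a1 and Trac in KO. Jag1 was higher on both, by 0.49 (0.33 to 0.65) and 0.41 (0.06 to 0.77). Acta2 was at 4236 CPM in WT and at 3066 in KO mural-like cells, Rgs5 at 139 and 134 CPM, and the part of this make-up was not tested.

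Sclerotome-like cells, precursors of the axial skeleton, had lower levels of Jag1 and of every Hey gene in KO, with 0 of 8 members past 2-fold where 4.21% of all genes were. Hey1 was at 8.03 CPM in WT and at 4.86 in KO, a ratio of -0.73 (-1.02 to -0.43). Heyl stood at -0.77 (-1.26 to -0.28), Hey2 at -0.64 (-1.17 to -0.11) and Jag1 at -0.41 (-0.66 to -0.17). Without the Pdgfrb-positive cells of either library Hey2 was at 0.34. The intervals of the 4 receptors included 0, with ratios from -0.21 to 0.06. By Uncx, a gene of the posterior sclerotome, Heyl was lower in KO cells without it (-1.70, -2.48 to -0.97; 52 and 23 UMIs) and stood at 0.16 (-0.56 to 0.91) in cells with it. Jag1 went the other way round, with -0.79 (-1.18 to -0.40) in cells with Uncx and -0.13 (-0.45 to 0.19) in cells without it. Neither difference between the sides was tested.

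Splanchnic mesenchyme-like cells, the mesenchyme of the gut, had 0 of 8 members past 2-fold, where 5.51% of all genes were. Jag1 stood at 0.38 (0.02 to 0.73), or -0.0068 at under 5% mitochondrial UMIs, and Notch2 at -0.42 (-0.81 to -0.05). Barx1 and Nkx2-5 were among the leading genes of the class in WT, and Gata5 and Wnt2 in KO. Skeletal muscle-like cells had 0 of 8, where 3.08% of all genes were, with Hey1 at -0.97 (-1.47 to -0.47) and Heyl at -0.58 (-1.09 to -0.05). Dll1 stood at -0.19 (-0.67 to 0.31) in this class. Hey1 of muscle was lower in KO both with Myog (-0.86, -1.5 to -0.22) and without it (-1.38, -2.24 to -0.53).

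Among neural crest or Schwann precursor-like cells, 0 of 7 members were past 2-fold, where 3.06% of all genes were. The intervals of all 7 included 0, with Notch1 at -0.01 (-0.32 to 0.30) and Heyl at 0.06 (-0.37 to 0.48). Cells meeting both neural lists had 0 of 7 past 2-fold, where 3.61% of all genes were. Notch1 (0.58, 0.15 to 1.01) and Heyl (0.73, 0.18 to 1.27) were higher there in KO. Coelomic or gonadal-like cells had 0 of 7, where 4.74% of all genes were, with lower Notch3 (-0.64, -1.10 to -0.19) and Hey1 (-0.79, -1.49 to -0.13). In the cells of no class, Notch1, Notch2 and Notch3 stood between -0.03 and 0.09, and Hey1 (-0.39), Hey2 (-0.50) and Heyl (-0.45) were lower. The whole interval of Hey1 was thus below 0 in endothelial-like (except with arterial and venous cells weighted equally or at under 5% mitochondrial UMIs, where the ratio was above 0), sclerotome-like, coelomic or gonadal-like, skeletal muscle-like and unnamed cells. In barcodes with at most 100 UMIs, Dll1 (1 UMI in WT and 3 in KO) and Dll4 (2 and 2) fell below the 20 UMIs set for a ratio. The intervals of the other members included 0. That of Hey1, from 26 and 20 UMIs, ran from -1.22 to 0.59, so lower free RNA in KO was not excluded.

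**Figure D5:**
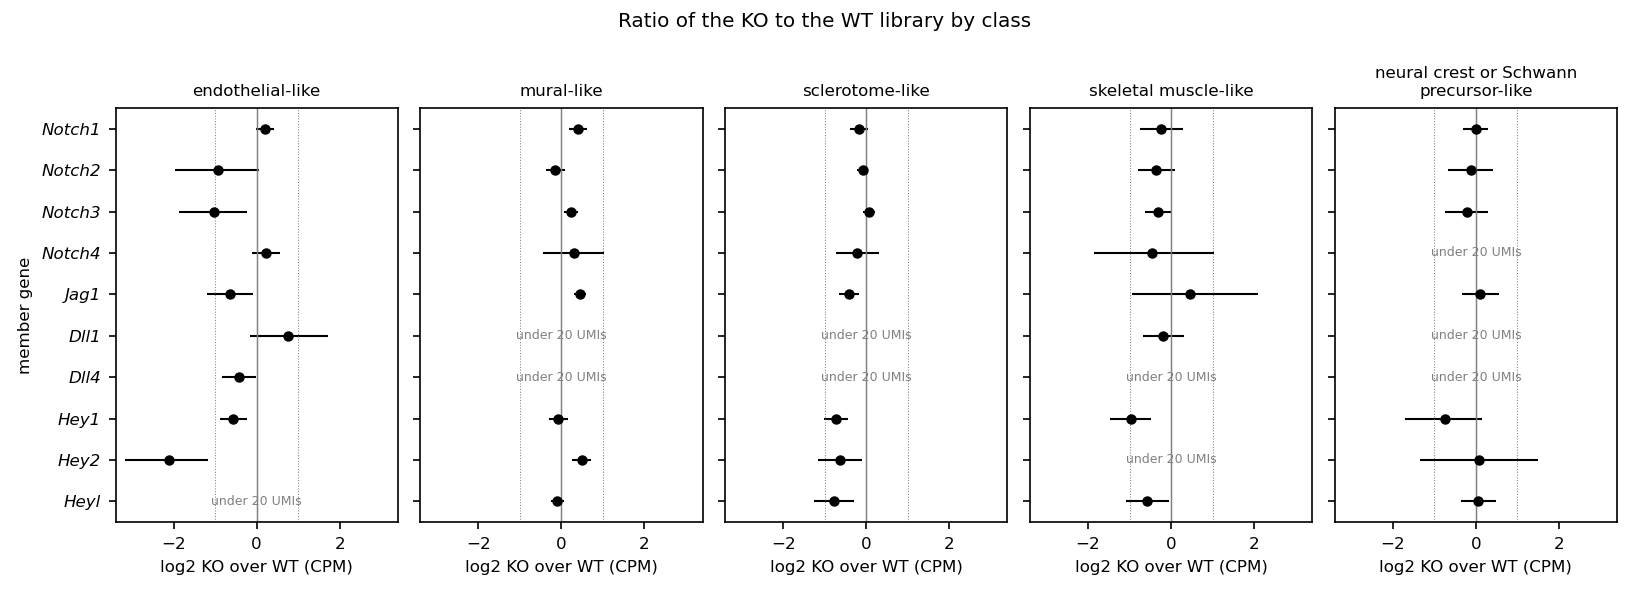
log2 ratio of KO over WT CPM for each member by class; points are ratios with at least 20 UMIs over both libraries, bars are 95% intervals of counting error, and the line at 0 marks equal levels. Hey2 of endothelial-like cells lies lowest at -2.12, and members of mural-like cells lie between -0.15 and 0.49.

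The other Notch pathway genes were taken from a list of 56 ligands, modifiers, proteases, nuclear partners and targets. In endothelial-like cells, 1 of 41 with enough UMIs was past 2-fold higher in KO and 3 lower, where 4.5% of all genes were past it. Neurl3, a ubiquitin ligase, had a ratio of 1.25 (0.22 to 2.39), and Dlk1, a ligand-like protein of mesenchyme, had -2.36 (-2.80 to -1.94). Numbl, an inhibitor of Notch, stood at -1.83 and Aph1b, a part of gamma-secretase, at -1.38. In mural-like cells it was 0 of 48, where 3.98% of all genes were. In sclerotome-like cells it was 2 of 52, where 4.21% of all genes were: the fringe enzyme Lfng (1.19, 0.09 to 2.45) and Dner (1.18, 0.22 to 2.24). In splanchnic mesenchyme-like cells 3 of 43 were higher, Neurl1a (1.82), Dtx4 (1.65) and Aph1c (1.29), and Cntn1 was lower (-2.64), where 5.51% of all genes were past 2-fold. Kat2b, an acetyltransferase (-1.11), was the 1 of 40 in skeletal muscle-like cells, where 3.08% of all genes were. The medians of the list lay between -0.08 and 0.07 in these 5 classes.

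Between sub-classes of WT, 3 of 38 list genes were past 2-fold in arterial against venous cells and 5 of 36 with Myog against without, where 8.66% and 8.89% of all genes were. In KO it was 8 of 36 and 11 of 39, where 10.7% and 12.1% were. Jag2, the other Jagged ligand, was higher in arterial than in venous cells of WT (2.10, 1.31 to 2.93) and of KO (2.66, 1.99 to 3.32), whereas Myc was lower (-1.23 and -1.95). In WT, Dtx4 (1.99) was the only other list gene past 2-fold, and in KO, Ccnd1 (-1.61) and Maml3 (-1.5) were past it as well. In skeletal muscle-like cells with Myog, Hes6, a gene of differentiating precursors, was higher in WT (1.78, 1.34 to 2.27) and KO (1.70, 1.45 to 1.97). Dlk1 was higher as well, by 1.32 and 2.29, and Fbxw7 by 1.44 and 1.06, while Myc was lower (-1.86 and -1.23). Dner had 35 UMIs with Myog and 0 without it in WT, and a ratio of 2.74 in KO, where Neurl1a had 3.48 from 67 and 1 UMIs. In KO, Hes1, a classic Notch target, was lower with Myog (-1.11, -1.39 to -0.82), as Hey1 was.

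The genes most like each member were sought over the 13 classes of both libraries, 26 points that share libraries, depth and class definitions, among 13783 genes outside the marker lists. The measure was Pearson's r of log2(CPM + 10), given as a description. Dll4 was most like Mmrn2 (0.98), Sox18 (0.98) and Ptprb (0.98), and Notch4 like Mmrn2 (0.97), Cyyr1 (0.96) and Nts (0.96). Notch1, which had levels in neural cells too, reached 0.90 with Fam129b, 0.86 with Mid2 and 0.84 with Enc1. Jag1 came closest to Hbegf (0.85), Prss23 (0.85) and Brinp1 (0.85), Hey2 to Mfap5 (0.91), Vegfd (0.91) and Avpr1a (0.89), and Heyl to Spon1 (0.90), Adamts5 (0.90) and Vgll3 (0.87). For Notch3 they were Fndc4 (0.90), Antxr1 (0.90) and Gli3 (0.88), and for Notch2, Timp2 (0.87), Copz2 (0.86) and Dguok (0.85). Dll1 was nearest to Ramp3 (0.92), Rgs16 (0.85) and Iffo1 (0.84), and Hey1 to Map4k5 (0.85), Col4a2 (0.85) and Yes1 (0.85). Between members, r was highest for Dll4 and Notch4 (0.95) and for Jag1 and Hey2 (0.84).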

How the data were processed

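The 2 libraries, 1 per genotype, were grouped by the genotype in their labels. The authors deposited UMI counts of 31053 genes for every barcode, unfiltered and not normalized, as made by Cell Ranger 3.1.0 on mm10 (GRCm38). Cells held at least 2000 UMIs and under 10% mitochondrial UMIs. Classes needed 3 markers, and cells meeting more than 1 class were left out. The minimum of 5 marker UMIs per 10000 and the order of precedence (macrophage over other leukocyte, skeletal muscle over mural) were set after seeing marker sums, before any member was read. Doublets were neither scored nor removed here. The study also kept all cells in this respect, but gave each a doublet score that it used in later steps. KO cells with Pdgfrb, which the study removed, were kept here.

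The UMIs of each gene were summed per class and scaled to CPM. Intervals are exact at 95% (Poisson for CPM, conditional binomial for ratios). They were tested on simulated data and cover counting error only. A count of 0 allows up to 3 UMIs. Shares were also computed after thinning to 2000 UMIs. Named genes are the 10 members, list genes past 2-fold (up to 4 per class or division) and the 3 genes most like each member. Members and lists were chosen with earlier results of these data known. Gene positions are from GENCODE M21 (GRCm38). Python 3.11.15, numpy 2.4.6, scipy 1.17.1, pandas 2.3.3 and matplotlib 3.10.9 were used. In all, 14 alternative settings were planned and 3 added after seeing the data. The Wilcoxon test over cells used in the study was left out because cells are not replicates.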

Additional observations from a re-analysis of the deposited data

Results flagged for a closer look

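For 4 members the KO over WT ratio had opposite signs in different classes, with both intervals away from 0. Notch3 stood at 0.24 in mural-like cells, -1.03 in endothelial-like cells and -0.64 in coelomic or gonadal-like cells. Jag1 stood at 0.44 in mural-like and 0.38 in splanchnic mesenchyme-like cells, and at -0.64 in endothelial-like and -0.41 in sclerotome-like cells. Hey2 stood at 0.49 in mural-like cells, -2.12 in endothelial-like cells and -0.64 in sclerotome-like cells. Heyl stood at 0.73 in cells meeting both neural lists, -0.77 in sclerotome-like cells and -0.58 in skeletal muscle-like cells. With 1 library per genotype, these differences between classes were not tested. The share of all genes with such opposite signs was not counted, so these 4 members are not set apart from other genes. The ratios in coelomic or gonadal-like cells and in cells meeting both neural lists were not computed under the other settings. Some of the signs turned under other settings: Jag1 of endothelial-like cells was at 0.14 without cells holding Acta2, Rgs5 or Pdgfrb and at 0.19 with equal weights for arterial and venous cells, which gave 0.0032 for Notch3. Jag1 of splanchnic mesenchyme-like cells was at -0.0068 at under 5% mitochondrial UMIs, and Hey2 of sclerotome-like cells at 0.34 without Pdgfrb-positive cells of either library.

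In the cells that met no class, which enter no class comparison, Dll1 had 11 UMIs in WT and 25 in KO, a ratio of 1.17 (0.10 to 2.34), and the markers that would name the cells carrying it were not searched for.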

How the results depend on the processing

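No paired analysis was possible because each genotype had 1 library, and for the same reason no library could be left out. Under the other settings chosen at the start for the 8 leading results, 83 values stayed within the reported interval (or near the reported count) and 19 moved. Of these, the ratio of Heyl between the libraries in mural-like cells took the other sign under 2 settings (values below) and no other ratio did. Dll4 of endothelial-like over other cells moved from 6.74 to 5.77 at under 5% mitochondrial UMIs, 8.53 with cells of more than 1 class assigned to the stronger, 8.09 as a mean per cell and 7.57 without cells over 50000 UMIs. Heyl of mural-like over other cells moved from 3.57 to 3.36 at under 5%, 3.35 with 1 marker fewer, 4.37 thinned, 3.0 without Pdgfrb-positive cells of either library and, added later, 3.89 with neural cells left out of the others.

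The KO over WT ratio of Notch3 in mural-like cells moved from 0.24 to 0.77 at under 5% mitochondrial UMIs and to 0.74 without Pdgfrb-positive cells of either library. That of Heyl there moved from -0.10 to 1.08, -0.41 (Pdgfrb-positive KO cells left out) and 0.27 (left out of both), but the reported interval already included 0. The under 5% limit kept 138 WT and 63 KO mural-like cells, of 549 and 358. Leaving out the Pdgfrb-positive cells of both libraries kept 160 WT and 244 KO mural-like cells. This setting took away a larger part of the class in WT, because KO lacks the gene. The part of the cells taken away in the values 0.74 and 0.27 was not tested. The 3 members past 2-fold became 5 at 5000 UMIs, at under 5%, with 1 marker more and without Pdgfrb-positive cells of either library, 6 without those of KO, and 1 thinned, where 14 pairs had enough UMIs.

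Settings added after seeing the data reversed some of the endothelial-like ratios. Leaving out cells with Acta2, Rgs5 or Pdgfrb gave 0.14 for Jag1 and -0.15 for Hey1 of venous cells. Dll4, Hey1, Hey2 and Notch3 of all endothelial-like cells stayed lower in KO under that setting. Equal weights for arterial and venous cells gave 0.026 for Dll4, 0.19 for Jag1, 0.17 for Hey1 and 0.0032 for Notch3, while Hey2 stayed lower. Among other ratios, the under 5% limit reversed Hey1 in endothelial-like cells (0.24) and Jag1 in splanchnic mesenchyme-like cells (-0.0068, at the level of WT), and, in stromal cells with Cspg4, Notch3 (0.13) and Hey1 (0.15). Without Pdgfrb-positive cells of either library, stromal cells with Cspg4 gave 0.22 for Notch3, 0.17 for Jag1, 1.07 for Hey2 and 0.51 for Heyl, and sclerotome-like cells 0.34 for Hey2. The weights and the left-out cells change which cells are counted, and the cause of the reversals was not tested under any setting. Pdgfrb is the gene lost in KO, so settings that leave out cells with it depend on genotype. Thinned ratios of Dll4 and of Dll1 by Myog held under 20 UMIs and gave no value. The setting that subtracted free RNA gave no value for Dll4 of endothelial-like and Heyl of mural-like over other cells, so these were not checked against it. Depth limits Dll1 and Hey2, whose ratios often rest on under 20 UMIs a side.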
